A study of Mus musculus with 6 samples.

Results

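The genes described here are 7 members of the BCL2 family, Mcl1, Bcl2, Bcl2l1, Bak1, Bcl2l11, Bad and Bid, chosen by gene symbol. Every probe set that the platform annotation assigns to 1 of these symbols and to no other was used. This gave 13 probe sets of the 12422 tested, and 7 genes of 8251. RNA came from untreated mouse embryonic stem cells, pluripotent cells of the early embryo, derived from wild-type embryos (3 arrays) and from embryos with a knockout of HDAC1, a class I histone deacetylase (3 arrays), and the series' design text places both in 1 litter. Each sample was hybridised to 1 Affymetrix MG U74Av2 array. The labels call the replicates biological without naming separate lines or cultures, and a p-value here reflects only the spread among these 6 arrays, some of which may be technical. The labels give neither the sex of the samples nor which of them were grown with LIF on gelatin and which on feeder layers.

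BCL2 proteins decide whether the outer membrane of the mitochondrion stays intact, and its rupture releases cytochrome c and starts the caspase cascade of apoptosis. Anti-apoptotic members (BCL2, BCL-XL encoded by Bcl2l1, and MCL1) bind and restrain the effectors BAX and BAK (Bak1), which form the pores. BH3-only members such as BIM (Bcl2l11), BID and BAD carry death signals by occupying the anti-apoptotic proteins, and BIM and BID can also engage the effectors directly. The question put to the arrays is which of these transcripts differ in level when HDAC1 is missing.

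Hdac1 itself separated the genotypes. Its signal was 2323.4, 2199.7 and 2407.8 in wild-type cells and 118.3, 110.1 and 197.1 in knockout cells, with an adjusted p of 2.32e-06 by limma. All 10 of the stem cell markers looked at, among them Pou5f1 and Nanog, lay above the background level, a signal of 116.4 set by control probe sets for transcripts that mouse cells lack. One array stood apart in its controls: HDAC1 knockout replicate 1 had a summed signal of 3407.5 on the 9 sense-strand probe sets of the hybridisation spikes, against 1017.9 to 1176.6 on the other 5 arrays, and the call of Mcl1 and the signs that turn without it are given with the results. Median signals of the arrays were 204.6, 199.55 and 206.8 in wild-type and 191.3, 199.35 and 186.55 in knockout cells. The knockout medians thus all lay below the wild-type ones, 1 of them by a small margin. Probe sets at or under background numbered 4688 to 4823 in wild-type and 4858 to 5015 in knockout arrays. Results with median centring, which removes the offset between medians, are given below.

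Promoter windows from RefSeq (GRCm38.p6) are shown for Mcl1 and Bcl2, the 2 members with the largest differences between the genotypes, from 250 bases before to 50 bases after the annotated start. Capitals mark GGGCGG, the core of the GC box, read on either strand. The Mcl1 window is chr3:95658471-95658770 on the plus strand and the Bcl2 window is chr1:106714241-106714540 on the minus strand.
Mcl1: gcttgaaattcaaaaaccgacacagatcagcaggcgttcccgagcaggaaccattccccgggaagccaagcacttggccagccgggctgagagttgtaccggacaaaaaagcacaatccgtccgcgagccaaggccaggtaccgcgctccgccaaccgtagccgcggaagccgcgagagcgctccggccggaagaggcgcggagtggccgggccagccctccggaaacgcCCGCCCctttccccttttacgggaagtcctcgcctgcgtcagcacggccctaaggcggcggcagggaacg
Bcl2: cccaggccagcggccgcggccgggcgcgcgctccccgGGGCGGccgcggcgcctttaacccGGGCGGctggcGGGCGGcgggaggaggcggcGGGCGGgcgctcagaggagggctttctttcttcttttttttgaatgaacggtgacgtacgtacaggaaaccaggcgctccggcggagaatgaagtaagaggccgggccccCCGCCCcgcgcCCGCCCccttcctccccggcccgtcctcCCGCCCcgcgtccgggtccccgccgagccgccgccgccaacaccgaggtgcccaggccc
The Bcl2 window held 7 matches, from position -213 to -9, and the Mcl1 window 1 match at position -20, counted by the first base of the match with the start site at 1. The table held 11 windows for the 7 genes, and 6 of these had a GGGCGG, against 35.7% of all 32851 windows. The Bcl2 window had 44 CpG dinucleotides, more than 97.8% of all windows, and the Mcl1 window 33, more than 91.4%. CCAAT was found in 3 of the 11 windows (37.4% of all) and not in those of Mcl1 or Bcl2. On both strands, none of the 11 windows had the E-box CACGTG (7.15% of all windows), the cyclic AMP response element TGACGTCA (1.79%), the TATA box TATAAA (13.6%) or the STAT motif TTCNNNGAA (8.30%). These are descriptions of letters in short windows, and no factor's binding was measured.

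Of the 13 probe sets 1, that of Mcl1, was called lower in knockout cells at an adjusted p under 0.05 by limma, and 0 were called higher. Over all 12422 probe sets 1.63% were called lower and 3.88% in either direction. At an unadjusted p under 0.05, 3 of the 13 were lower (Mcl1 and a pair of Bcl2 probe sets) and 1 was higher, a Bcl2 probe set at background in all 6 arrays, while 15.4% of all probe sets passed that level. The knockout arrays all lay below the wild-type arrays for 5 of the 13, against 11.2% of all probe sets. Those 5 belong to Mcl1, Bcl2 (both of those named above), Bcl2l11 and Bad. By brightest probe set this held for 3 of the 7 genes, against 995 of all 8251. Among probe sets above background in at least 1 genotype it held for 5 of 10, against 1108 of 7997. Of those 5, Bcl2 98869_g_at passed this filter only through its wild-type arrays, where it is higher, so its place in the count is partly built in. The members were chosen with earlier results of these data known. The median log2 difference over the 13 was -0.25 and over all probe sets -0.04. It was negative for 11 of the 13, and for 9 with quantile normalization and 8 with median centring, while 55.1%, 51.4% and 45.5% of all probe sets were negative under the same scalings. Without HDAC1 knockout replicate 1, the array that stood apart, it was negative for 8 of the 13 and for 54.4% of all probe sets, with a median over the 13 of -0.31. The 3 that turned without that array were Bad 161500_i_at (0.07), Bid (0.02) and Bcl2l11 99419_g_at (0.04), none of them called. At background in both genotypes were 3 of the 13, 1 each of Bcl2, Bcl2l1 and Bcl2l11, and no fold is given for these. Their log2 differences enter the median and the counts of signs over the 13 but measure no level. Of the 10 above background in at least 1 genotype, 9 had a negative log2 difference. The median over those 10 was -0.28, against -0.03 over all such probe sets. Both the count of signs and the median include Bcl2 98869_g_at, which is among the 10 only through its wild-type arrays.

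**Figure D1:**
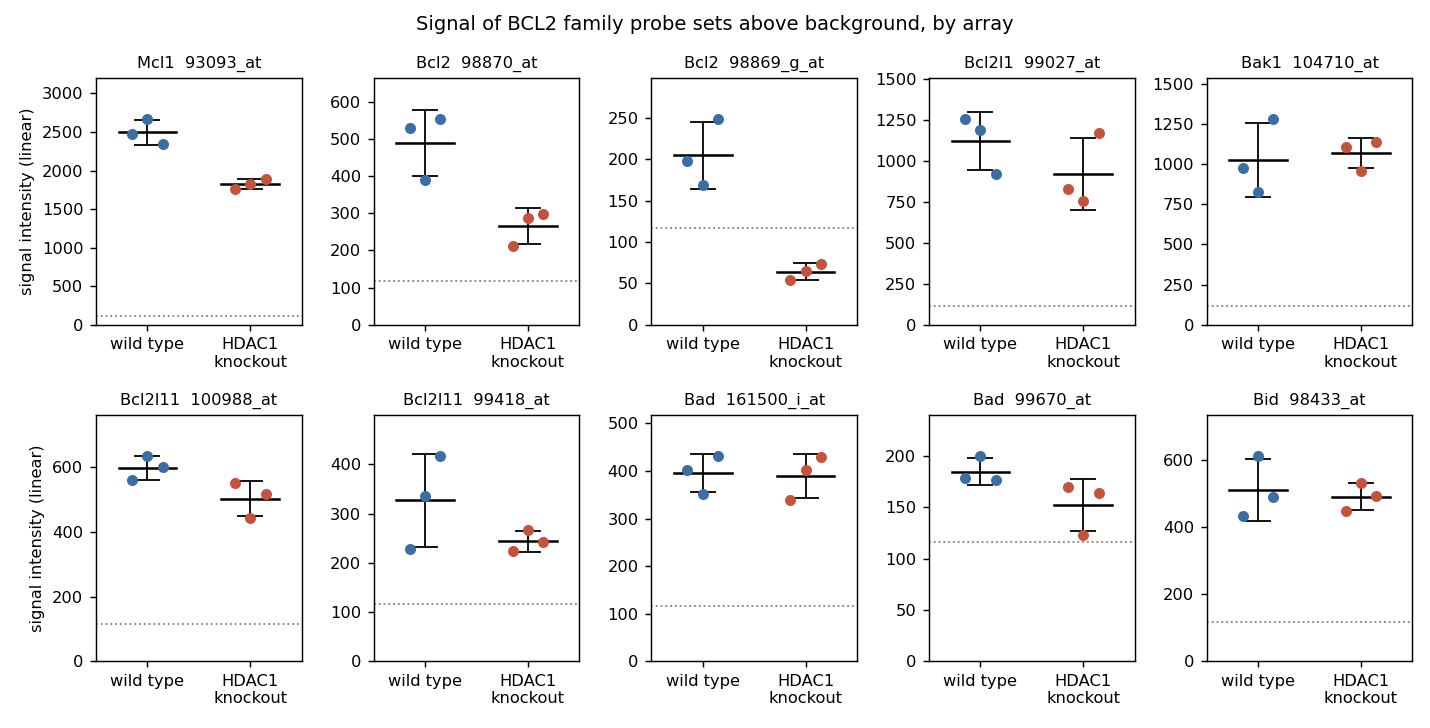
Linear signal intensity (vertical axes, from 0) of the 10 BCL2 family probe sets above background in at least 1 genotype, in each wild-type (blue) and HDAC1 knockout (red) array; bars are means with the SD over 3 arrays and the dotted line is the background level of 116.4. The genotypes do not overlap for Mcl1, for both Bcl2 probe sets shown, for Bcl2l11 100988_at and for Bad 99670_at, and only Mcl1 passed the test.

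Mcl1 fell in knockout cells from a signal of 2493.1 to 1825.5, the 1 change of a member that passed the test. Mcl1 encodes a short-lived anti-apoptotic protein that holds BAK and BIM, and mouse embryos without it die around implantation. Its probe set 93093_at (chromosome 3) read 2474.0, 2661.7 and 2343.6 in the wild-type arrays and 1763.3, 1823.5 and 1889.7 in the knockout arrays. The highest knockout value lay well under the lowest wild-type value, and the SD was 6.41% of the mean in wild-type and 3.46% in knockout cells, the narrowest spread of the knockout group among the 13 probe sets. The means were 2493.1 ± 159.9 and 1825.5 ± 63.2 (SD, n = 3), 1.36-fold lower, a change of -26.5% on the log2(signal + 16) scale. The log2 difference was -0.44 ± 0.08 (SE), with a 95% confidence interval of -0.63 to -0.26, an adjusted p of 0.0143 by limma and rank 266 of 12422 by p. The call lay near the threshold. Leaving out wild type replicate 1 or 2 or HDAC1 knockout replicate 1 or 2 ended it (adjusted p of 0.0535, 0.0593, 0.0589 and 0.0692), as did median centring (log2 difference -0.37, adjusted p = 0.0656), a variance model without a trend (adjusted p = 0.234) and the replicate number as a block (adjusted p = 0.0555).

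Bcl2 had the largest difference among the members' brightest probe sets, and it narrowly missed the threshold. Its product, the founding member of the family, sits on the mitochondrial outer membrane and the endoplasmic reticulum. Probe set 98870_at (chromosome 1) read 529.7, 388.6 and 552.3 in wild-type cells and 210.7, 286.6 and 298.5 in knockout cells, so that no knockout array reached the lowest wild-type array. The means were 490.2 ± 88.7 and 265.3 ± 47.6 (SD, n = 3), with a log2 difference of -0.85 ± 0.21 (SE, interval -1.32 to -0.37, 1.80-fold) and an adjusted p of 0.0597 by limma.

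The second Bcl2 probe set, 98869_g_at, pointed the same way. It read 198.3, 168.4 and 248.2 in wild-type cells and 53.6, 64.9 and 73.9 in knockout cells. Every wild-type array was above the background level and every knockout array under it, so the difference is given only as a bound, at least 1.65-fold lower in knockout cells. The measured means were 205.0 ± 40.3 and 64.1 ± 10.2 (SD, n = 3), and the adjusted p by limma was 0.0598. Leaving out the dimmest 25% of probe sets before the adjustment called both (adjusted p = 0.0383 for 98870_at and 0.0326 for 98869_g_at), without any change in their differences, and leaving out the dimmest 50% called 98870_at (adjusted p = 0.0286). The dimmer one was also called without a trend (adjusted p = 0.0372) and with robust estimation (adjusted p = 0.0478), and with any single array left out neither was called. The platform annotation gives the 3 Bcl2 probe sets the same source sequence, so they are not independent measurements. The third, 98868_at, read 2.8 to 6.9 in wild-type and 8.2 to 33.6 in knockout cells, far under background on every array, and its opposite sign says nothing about the level of Bcl2.

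Bcl2l1, whose main product BCL-XL is the third anti-apoptotic protein measured, did not pass the test. Probe set 99027_at (chromosome 2) read 1251.0, 1187.0 and 916.0 in wild-type cells and 829.3, 755.4 and 1165.8 in knockout cells. The groups overlapped through wild type replicate 3, which was low, and HDAC1 knockout replicate 3, which was high. The log2 difference was -0.29 ± 0.17 (SE, adjusted p = 0.480), and its interval of -0.68 to 0.09 corresponds to a level between 0.63 and 1.06 times that of wild-type cells. Probe set 99026_at was at background on all 6 arrays, between 8.6 and 115.7.

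Bak1, the pore-forming effector among the 7 genes, did not pass the test either. Probe set 104710_at (chromosome 17) read 971.9, 824.6 and 1276.8 in wild-type cells and 1106.6, 958.8 and 1138.7 in knockout cells, all 3 knockout values inside the wild-type range. The log2 difference was 0.08 ± 0.15 (SE, adjusted p = 0.889), and the interval of -0.26 to 0.42 leaves room for a level between 0.83 and 1.34 times that of wild-type cells. Its sign turned without wild type replicate 2 (-0.06).

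None of the 3 BH3-only genes passed the test. Bcl2l11, which encodes BIM, an activator that binds all 3 of the anti-apoptotic proteins above, read 559.6, 634.1 and 600.8 in wild-type cells on its brightest probe set, 100988_at (chromosome 2), and 550.6, 443.0 and 516.0 in knockout cells. The groups were separated by a narrow gap, and the log2 difference of -0.25 ± 0.14 (SE, interval -0.56 to 0.07) had an adjusted p of 0.469. A second probe set, 99418_at, read 228.5, 335.8 and 416.3 against 223.0, 265.8 and 242.7, where wild type replicate 1 lay within the knockout range (log2 difference -0.36 ± 0.25, adjusted p = 0.574). The third, 99419_g_at, stayed between 85.6 and 116.5, at background apart from 1 wild-type array at 116.5.

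Bad, a BH3-only protein that 14-3-3 proteins hold inactive while it is phosphorylated, gave overlapping groups on its brighter probe set. Probe set 161500_i_at (chromosome 19) read 402.6, 352.4 and 430.9 in wild-type cells, against 338.5, 400.9 and 429.9 without HDAC1, and had a log2 difference of -0.02 ± 0.18 (SE, adjusted p = 0.980). Quantile normalization and median centring turned that sign (0.0006 and 0.06). Probe set 99670_at read 177.9, 199.6 and 176.5 against 169.7, 122.7 and 163.9, close to background and without overlap (log2 difference -0.27 ± 0.30, adjusted p = 0.765). Its 2 probe sets therefore differ in whether the groups overlap, and neither passed the test.

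Bid, which caspase-8 cleaves to link death receptors to the mitochondrion, read 432.3, 611.1 and 488.3 in wild-type cells and 449.2, 530.5 and 493.0 in knockout cells on probe set 98433_at (chromosome 6). The knockout values all lay within the wild-type range. The log2 difference was -0.04 ± 0.17 (SE, interval -0.41 to 0.32, adjusted p = 0.950), with the sign turned by median centring (0.03).

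**Figure D2:**
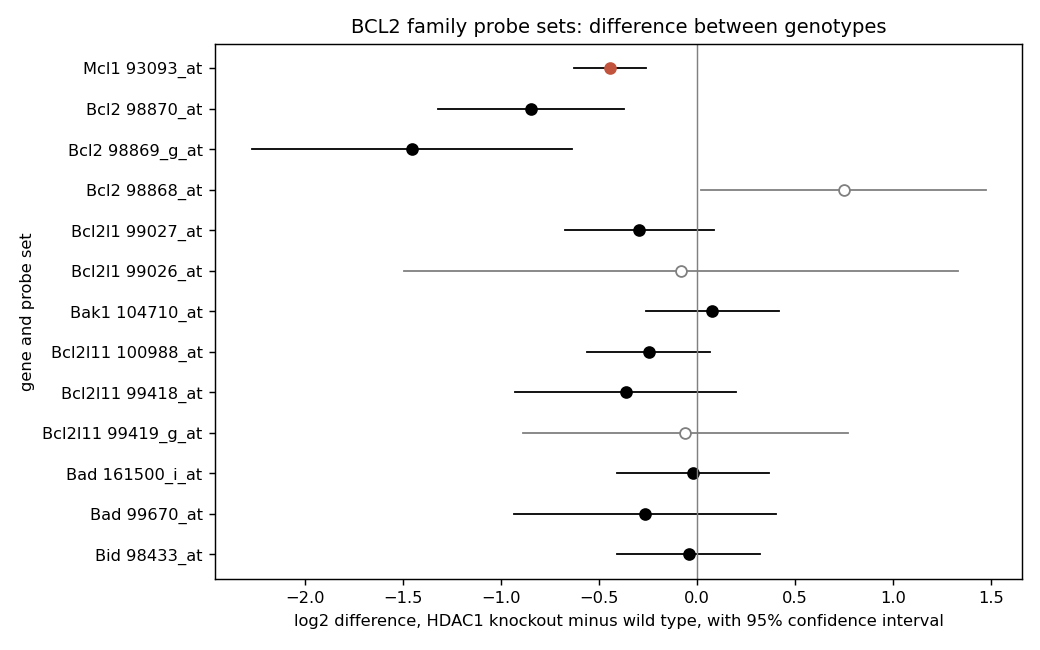
Log2 difference of signal + 16, HDAC1 knockout minus wild type (horizontal axis), with limma's 95% confidence interval, for all 13 probe sets; red marks the called probe set and open grey circles those at background in both genotypes. Mcl1 lies at -0.44 with the narrowest interval, Bcl2 98870_at lies at -0.85, and the intervals of Bcl2l1, Bak1, Bcl2l11, Bad and Bid all include 0. The point of Bcl2 98869_g_at rests on knockout arrays that are all under background, so it is to be read only as a bound of at least 1.65-fold.

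The change of each anti-apoptotic transcript was also set beside that of Bak1, Bcl2l11 and Bad within each array. Brightest probe sets were used, relative to the wild-type mean, 9 pairs in all and without a test. The pairs were formed without regard to which of the proteins bind each other. The log2 ratio of Bcl2 to Bak1 was 0.18, -0.02 and -0.15 in the wild-type arrays and -1.28, -0.66 and -0.84 in the knockout arrays, which did not overlap. For Mcl1 to Bak1 it was 0.04, 0.38 and -0.42 in wild-type and -0.63, -0.37 and -0.57 in knockout cells, which overlapped through wild type replicate 3, the array with the highest Bak1 signal. The knockout mean of Bcl2l1 to Bak1 was -0.37 ± 0.24 (SD, n = 3), with overlap as well. Relative to Bcl2l11 the differences were smaller, with knockout means of -0.20 ± 0.18 for Mcl1, -0.60 ± 0.38 for Bcl2 and -0.05 ± 0.29 for Bcl2l1 (SD, n = 3), and the groups overlapped for all 3. Relative to Bad the knockout means were -0.42 ± 0.12 for Mcl1 and -0.83 ± 0.10 for Bcl2, without overlap, and -0.27 ± 0.27 for Bcl2l1, with overlap. Of the 9 pairs 6 overlapped. The pairs reuse the same genes, so they are not separate results, and the share over other gene pairs was not computed. Bid was not among the partners. Only the pairs without overlap show unequal change within an array, and a ratio alone does not say which of its 2 transcripts changed. The log2 differences of the single genes in those pairs were -0.44 for Mcl1, -0.85 for Bcl2, 0.08 for Bak1 and -0.02 for Bad. The ratios restate these differences.

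Some markers of another cell type, the feeder fibroblast, were also lower in knockout cells. The summed signal of 15 feeder fibroblast markers ran from 14506.3 to 15314.5 in wild-type and from 10639.3 to 11012.5 in knockout arrays, so that the knockout mean was 73.5% ± 1.35 of the wild-type mean, beside 73.2% ± 2.54 for Mcl1 and 54.1% ± 9.72 for Bcl2 98870_at (SD, n = 3). Of the 15, 4 were called lower (Tagln, Col1a1, S100a4 and Fbln2), 0 higher, and 12 were above background in at least 1 genotype, while Postn, Lum and Pdgfrb were not. Those 4 carried most of the lower sum, at 60.1% ± 3.52 of the wild-type mean. The other 11 together were at 91.2% ± 4.47, with overlapping groups. The split was made by the calls in these same arrays, so a gap between the 2 parts was built in. All knockout arrays lay below all wild-type arrays for 7 of the 15, against 995 of all 8251 genes. Besides the 4 called, these were Col3a1, Pdgfra and Dcn, with log2 differences of -0.69, -0.48 and -0.40. For the abundant fibroblast genes Col1a2 and Fn1 the log2 differences were 0.04 and 0.05, without a call, the only positive ones among the 15. The part of feeder cells in the values of Mcl1 and Bcl2 was not tested, and in bulk RNA fewer cells of a type and less RNA per cell cannot be told apart. The summed signal of the 10 stem cell markers was 130.4% ± 2.19 of the wild-type mean in the same knockout arrays, and 5 of them were called higher. Among those 5, Nanog rose from a mean of 5394.3 to 11376.4. The other 5 were not called, with log2 differences of 0.10 for Pou5f1, 0.09 for Dppa5a, -0.01 for Utf1, -0.02 for Tdgf1 and 0.85 for Esrrb. The summed signal of 10 primitive endoderm markers was 126.8% ± 10.8, with 1 called higher, Lama1, from a mean of 496.3 to 1183.6. Pdgfra, Sox7 and Foxa2, the last at background, had negative log2 differences (-0.48, -0.32 and -0.60), and the rest had positive ones. Pdgfra is on this list and on the fibroblast list, so it enters both sums. For the beta-actin control the ratio of 3' to 5' signal, a measure of RNA quality, was 1.15 to 1.21 in wild-type and 1.04 to 1.09 in knockout arrays, and its part was not tested either. The same ratio for the GAPDH control overlapped, at 0.797 to 0.809 and 0.769 to 0.805.

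**Figure D3:**
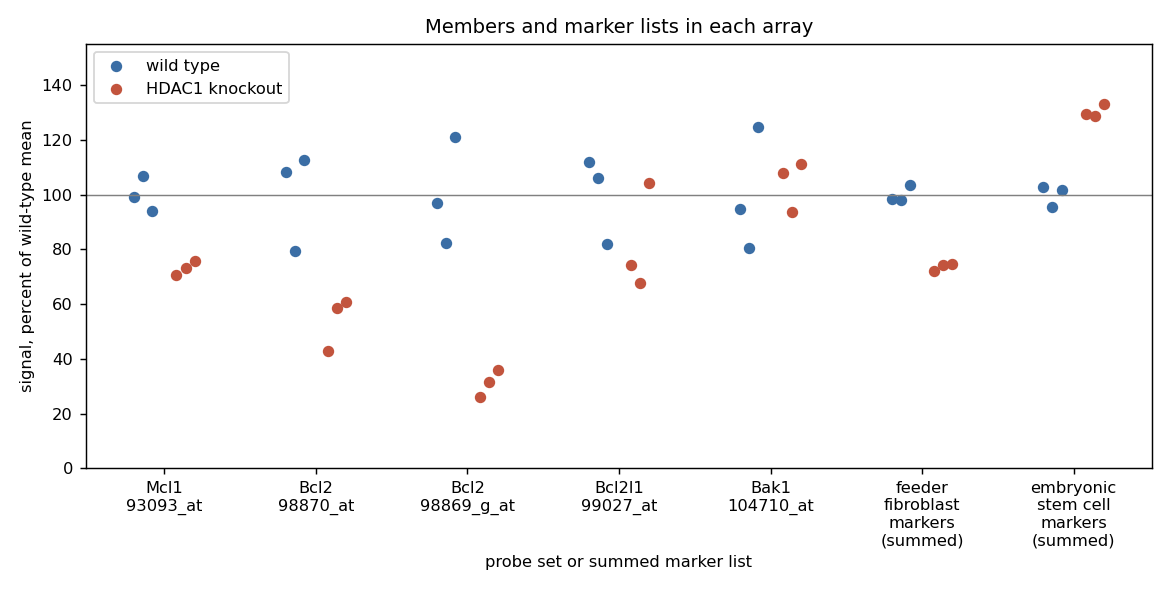
Signal as a percent of the wild-type mean (vertical axis, from 0) in each wild-type (blue) and HDAC1 knockout (red) array, for 5 member probe sets and the summed feeder fibroblast and embryonic stem cell markers. The knockout arrays lie between 70.7% and 75.8% for Mcl1 and between 72.0% and 74.5% for the summed fibroblast markers. They lie above the wild-type arrays for the summed stem cell markers. Within the fibroblast sum, the 4 called markers are at 60.1% of the wild-type mean. The other 11 together are at 91.2%, with overlapping groups. The split follows the calls in these same arrays, so a gap between the parts is built in.

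The genes whose pattern over the 6 arrays was most like that of a member were found among 5684 genes above background, by the root mean square difference of log2 values centred on each gene's mean. Nearest to Mcl1 were Eif2a (0.033) and Romo1 (0.041), which had log2 differences between the genotypes of -0.46 and -0.39 and were not called (adjusted p = 0.0537 and 0.0562 by limma). Nearest to Bcl2 were Mmp14, a membrane-bound matrix metalloproteinase (0.108), and Lpp, a focal adhesion protein (0.112), both of them called lower, with log2 differences of -0.70 and -0.79 (adjusted p = 0.0205 and 0.0131). Nearest to Bcl2l11 were Zdhhc3 (0.036) and Gnb2 (0.044), neither of them called. Likeness over 6 arrays in 2 groups mostly reflects the difference between the groups.

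Among the other genes of the apoptosis pathway, 34 of 48 listed were measured by a probe set of their own, and 3 were called higher and 0 lower by limma, against 2.7% and 1.88% of all genes. At an unadjusted p under 0.05 there were 4 higher (11.8%) and 0 lower, against 8.45% and 8.65% of all genes. All 3 called genes lie on the X chromosome. Usp9x, a deubiquitinase known from human cells to stabilise the MCL1 protein, rose 1.84-fold from 1437.6 ± 46.0 to 2674.2 ± 297.8 (SD, n = 3; adjusted p = 0.000565). Huwe1, a ubiquitin ligase known from human cells to mark MCL1 for degradation, rose 1.49-fold from 1495.3 ± 81.3 to 2239.5 ± 115.3 (adjusted p = 0.00384). Aifm1, the apoptosis-inducing factor of the mitochondrial intermembrane space, rose 1.60-fold from 1598.9 ± 104.8 to 2564.8 ± 236.5 (adjusted p = 0.00296). Without a trend in the variance model none of the 3 was called, with adjusted p of 0.0665 for Usp9x, 0.147 for Huwe1 and 0.128 for Aifm1.

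X-linked genes were higher as a whole in these knockout arrays, with 52 of 259 called higher and a median log2 difference of 0.23, against -0.04 for autosomal genes, so loss of HDAC1 and sex chromosomes cannot be told apart for these 3. The fourth X-linked gene on the list, the caspase inhibitor Xiap, was close to background and not called (log2 difference 0.38 ± 0.45, adjusted p = 0.774). All 7 members of the BCL2 family described above are autosomal. The median over the 30 autosomal genes of the list was -0.07, and over all 34 it was -0.03.

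Apart from these 3 X-linked genes none of the list was called. Bcl2l2, the anti-apoptotic relative BCL-W, had signals of 319.4 ± 54.2 with HDAC1 and 224.1 ± 59.6 without it (log2 difference -0.50 ± 0.26, adjusted p = 0.410), and Bcl2l10 was near background. Bok, an effector-like member, had 724.2 ± 203.9 and 710.9 ± 111.9 (adjusted p = 0.998), and Bnip3 306.9 ± 97.9 and 388.3 ± 149.7 (adjusted p = 0.728), while Hrk was at background in both genotypes. Of the death receptor genes Tnfrsf1a had 205.2 ± 103.0 and 97.1 ± 50.8 (adjusted p = 0.422), and Fas was at background. Of the caspase inhibitors the smallest p was that of Birc3, with 169.6 ± 65.1 and 93.6 ± 41.3 (adjusted p = 0.455). Casp8 was at background by its group means in both genotypes. Cycs, which encodes cytochrome c, had 411.8 ± 99.3 and 523.2 ± 118.2 (adjusted p = 0.546). Ywhaz, a 14-3-3 protein, had the fourth p under 0.05 before adjustment (log2 difference 0.26 ± 0.11, adjusted p = 0.314). The 14 listed genes without a probe set of their own were not analysed here.

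**Figure D4:**
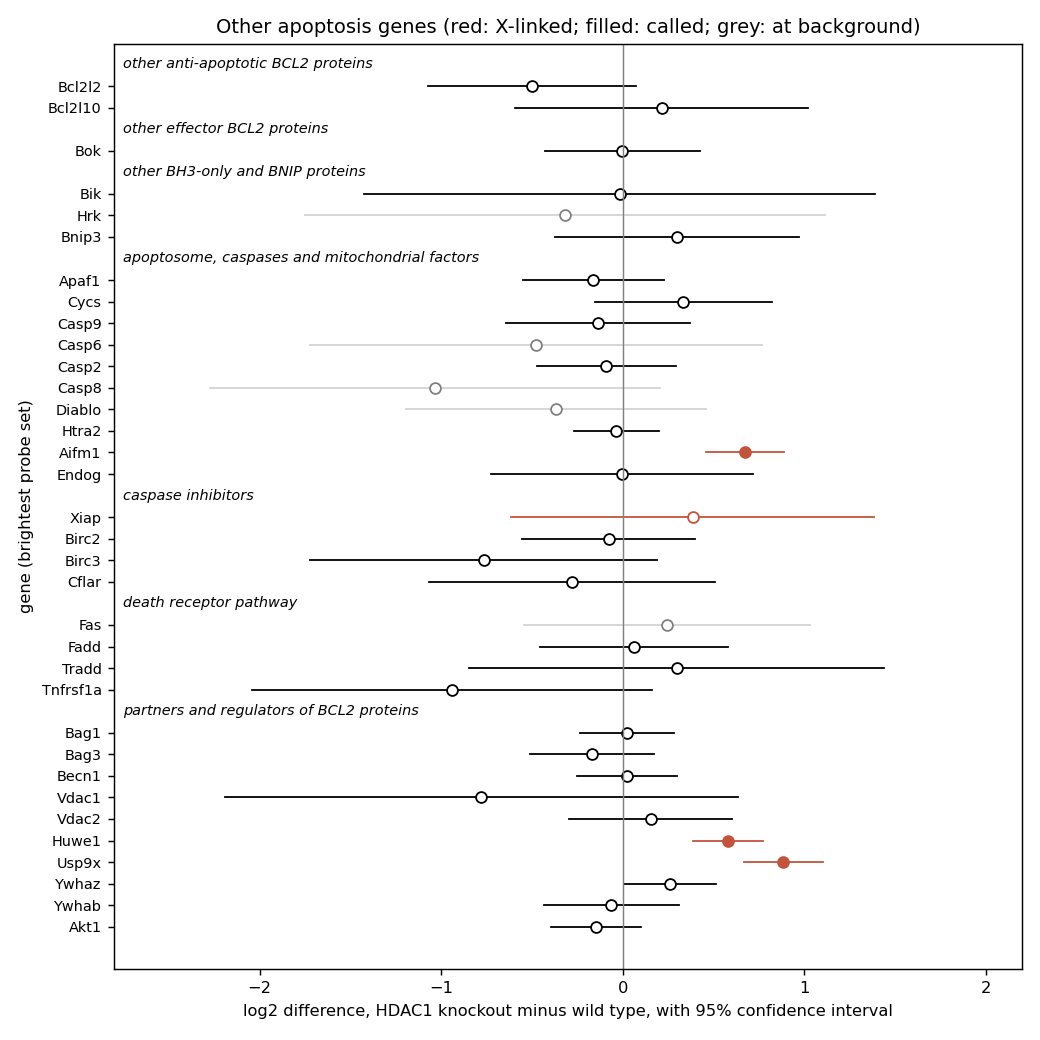
Log2 difference, HDAC1 knockout minus wild type (horizontal axis), with 95% confidence intervals, for the brightest probe set of 34 apoptosis genes grouped by role; red marks X-linked genes, filled circles called genes and grey genes at background in both genotypes. The 3 called genes, Aifm1, Huwe1 and Usp9x, are X-linked and higher in knockout cells.

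**Figure D5:**
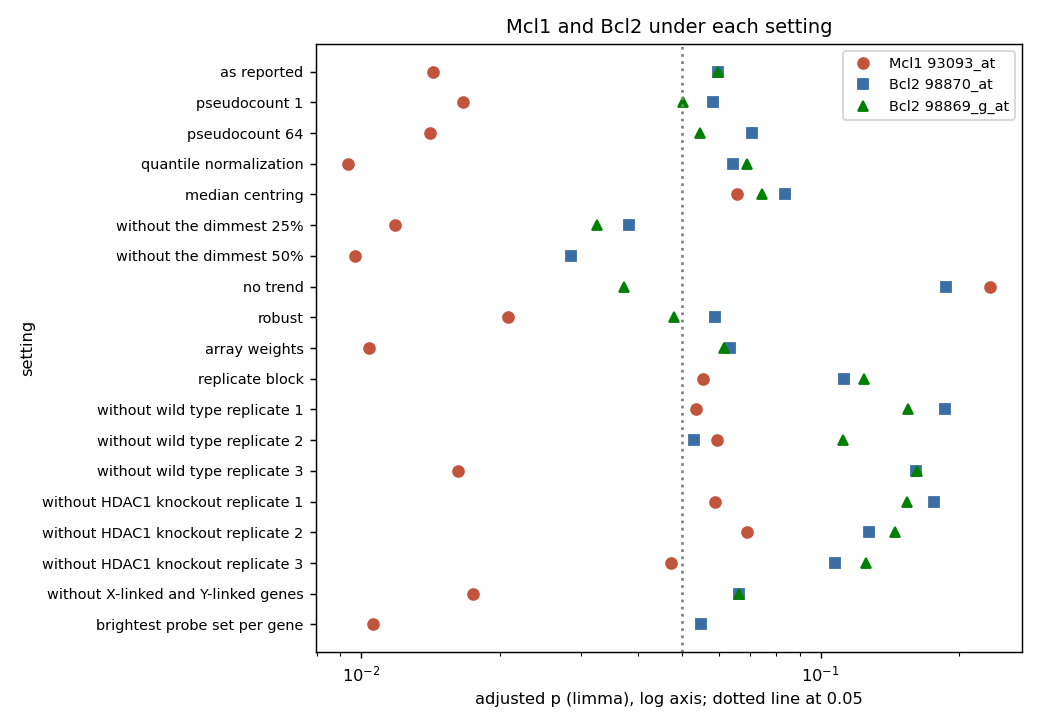
Adjusted p by limma (horizontal log axis, dotted line at 0.05) of Mcl1 and of the 2 Bcl2 probe sets above background, under the reported fit and each other setting at the same threshold (vertical axis). Mcl1 moves from 0.0143 to 0.0535 and above when any 1 of 4 arrays is left out, and Bcl2 lies near the line in most settings with all 6 arrays.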

How the data were processed

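Total RNA was hybridised as biotin-labelled cRNA, 1 colour. The authors deposited linear signal intensity per probe set made with MAS5, per the submitters' processing notes. Its version, detection calls and a genome build were not given in the sources used here. Trimmed means (2% off each end) were 500.3 on all 6 arrays, so values were used as deposited. Such scaling hides a change of all transcripts in 1 direction.

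Of 12488 probe sets 66 were controls. The platform annotation named the genes, and gene IDs gave current symbols through RefSeq (GRCm38.p6). Of 12422 probe sets 10833 had 1 symbol, 396 several and 1193 none, and 10817 matched. limma 3.58.1 (R 4.3.3) was fitted to log2(signal + 16), with lmFit and a trended eBayes, and p-values were adjusted by Benjamini-Hochberg over all 12422 and called at 0.05. An exact permutation test of 3 against 3 arrays cannot go below 0.1. Background is the 95th percentile of 19 bacterial and yeast control probe sets, 116.4, a level set with the values known. A group with all arrays or its mean at or under it gives a bound, its arrays raised to that level. Genes are represented by their brightest probe set. Named genes are all members, every called gene of the apoptosis list, up to 2 genes of each of its groups with the smallest p, Hdac1, and the 2 genes most like each member whose genotypes did not overlap. Other genes named, markers included, were chosen after their values were seen. The members and lists were chosen with earlier results of these data known. The script was tested on simulated data. The alternatives were other pseudocounts, scalings, filters, variance models, array weights, a replicate block, single arrays left out, no sex-linked genes, a threshold of 0.1 and genes in place of probe sets. The number of arrays limits the precision.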

Additional observations from a re-analysis of the deposited data

How the results depend on the processing

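The log2 difference of Mcl1 was negative in all 19 other settings, from -0.49 to -0.37, and its adjusted p ran from 0.00937 to 0.234. The 2 Bcl2 probe sets above background were negative in every setting that kept them, with log2 differences of 98870_at from -1.0003 to -0.70, and adjusted p from 0.0286 to 0.187 for 98870_at and from 0.0326 to 0.162 for 98869_g_at. Called lower among the members were 0 with median centring, 3 without the dimmest 25% of probe sets, 2 without the dimmest 50%, 2 with robust estimation and 3 at a threshold of 0.1, and 0 to 1 with single arrays left out. Both filters leave fewer probe sets in the adjustment. For the other changes the cause was not tested.

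Of all probe sets tested, 279 rose and 203 fell. Without a trend there were 82 and 50, with median centring 344 and 129 (72.7% of calls higher, against 57.9%), at a threshold of 0.1 396 and 311, and with single arrays left out 150 to 246 and 98 to 174. Of the apoptosis list 0 were higher without a trend and 0 without X-linked and Y-linked genes. Hdac1 was called in all 19 other settings (log2 difference -4.16 to -3.55).

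The signals showed no pairing of the arrays by replicate number, which cannot tell whether same-numbered samples were cultured or processed together. Same-numbered deviations from the group means correlated at -0.053, -0.012 and -0.084, and no array correlated best with its own number. With the number as a block, 0 members were called (Mcl1 adjusted p = 0.0555), and 119 probe sets were lower in all.

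Signs without a call turned as follows, and 8 to 11 of the 13 member probe sets were negative with single arrays left out. Bad 161500_i_at was at 0.0006 with quantile normalization, 0.0563 with median centring, 0.0002 with array weights and -0.0987 to 0.0726 with single arrays left out. Bcl2l11 99419_g_at was at 0.0280 with quantile normalization, 0.0184 with median centring and -0.1252 to 0.0374 with single arrays left out. Bid was at 0.0339 with median centring and -0.1529 to 0.0892 with single arrays left out, Bcl2l1 99026_at at 0.0241 with a pseudocount of 64 and -0.58 to 0.63, and Bak1 at -0.0640 to 0.2465.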
